A study of Homo sapiens with 84 samples.

Results

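The genes described here are 41 of the 57964 genes in the count table: 25 genes of glycolysis (glucose and lactate transporters, the enzymes from hexokinase to lactate dehydrogenase, the regulators of phosphofructokinase and pyruvate dehydrogenase kinases) and 16 targets of the hypoxia-inducible factors (HIF). They were chosen by name, with earlier results of these data known. Their rows were found through the Ensembl identifiers of the table and the symbols of GENCODE 29. The data are 84 RNA libraries of NCI-H1373 and NCI-H647, 2 established non-small cell lung cancer lines. The treatments lasted 6 or 24 h and were DMSO (the vehicle), 3 doses of RBN-2397 (10, 30 and 300 nM) and 3 doses of RBN012337 (3, 10 and 100 nM). Each compound inhibits PARP7, which TIPARP encodes and which attaches single ADP-ribose units to proteins. RBN-2397 is written RBN012397 in the sample labels. Line, compound, dose and time gave 28 groups of 3 libraries, and no group carries a genetic change made by the study. The labels name triplicate experiments but no separate cultures, so a p-value here reflects only how far these libraries spread, and that spread may be technical.

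Glycolysis splits glucose into pyruvate in the cytosol, and lactate dehydrogenase turns pyruvate into lactate when mitochondria do not burn it. HIF-1 is a pair of proteins, an oxygen-regulated alpha subunit and the constant partner ARNT. Prolyl hydroxylases such as those encoded by EGLN1 and EGLN3 mark the alpha subunit for destruction when oxygen is present. When it escapes, HIF-1 binds ACGTG or GCGTG elements near its target genes, which include most glycolytic enzymes, VEGFA, BNIP3, CA9 and ANKRD37. ARNT also pairs with the aryl hydrocarbon receptor (AHR), whose core element holds GCGTG. TIPARP is a target of AHR, and its protein has been reported to promote the loss of HIF-1 alpha.

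RefSeq promoters (GRCh38.p14) are shown for 6 members that the results below turn on. SLC2A1, LDHA, ENO1 and PGAM1 were the glycolytic genes called most often under the inhibitors, ANKRD37 was lower at 6 h, and BNIP3 was lower in NCI-H647. Each run holds the 250 bases before the transcription start, 5′ to 3′ on the gene's own strand, with ACGTG and GCGTG on either strand in capitals (CACGT and CACGC are the reverse strand). SLC2A1 is chr1:42958869-42959118 on the minus strand, LDHA is chr11:18394313-18394562 on the plus strand and ENO1 is chr1:8878687-8878936 on the minus strand. PGAM1 is chr10:97427568-97427817 on the plus strand, ANKRD37 is chr4:185396591-185396840 on the plus strand and BNIP3 is chr10:131981924-131982173 on the minus strand.
SLC2A1: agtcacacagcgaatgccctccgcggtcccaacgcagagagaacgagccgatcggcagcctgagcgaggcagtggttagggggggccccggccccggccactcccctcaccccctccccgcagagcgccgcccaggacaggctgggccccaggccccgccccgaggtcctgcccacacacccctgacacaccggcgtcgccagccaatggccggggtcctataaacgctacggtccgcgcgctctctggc
LDHA: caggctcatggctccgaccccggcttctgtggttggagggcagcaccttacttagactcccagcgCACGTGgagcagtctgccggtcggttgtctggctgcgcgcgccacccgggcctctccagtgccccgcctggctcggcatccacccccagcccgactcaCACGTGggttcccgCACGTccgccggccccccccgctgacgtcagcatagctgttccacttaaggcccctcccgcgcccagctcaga
ENO1: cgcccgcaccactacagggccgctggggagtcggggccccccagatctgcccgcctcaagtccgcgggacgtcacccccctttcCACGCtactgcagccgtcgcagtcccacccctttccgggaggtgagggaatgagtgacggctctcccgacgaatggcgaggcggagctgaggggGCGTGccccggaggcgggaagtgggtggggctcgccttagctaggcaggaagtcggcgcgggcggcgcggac
PGAM1: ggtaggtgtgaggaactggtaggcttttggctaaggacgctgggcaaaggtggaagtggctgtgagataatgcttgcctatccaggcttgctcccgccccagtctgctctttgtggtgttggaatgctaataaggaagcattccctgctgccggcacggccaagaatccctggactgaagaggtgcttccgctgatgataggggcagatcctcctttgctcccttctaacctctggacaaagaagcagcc
ANKRD37: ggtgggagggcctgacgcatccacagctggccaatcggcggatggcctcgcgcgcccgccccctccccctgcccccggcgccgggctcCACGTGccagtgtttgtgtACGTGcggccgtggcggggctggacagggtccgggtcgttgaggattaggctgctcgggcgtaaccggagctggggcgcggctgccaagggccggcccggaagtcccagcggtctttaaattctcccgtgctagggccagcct
BNIP3: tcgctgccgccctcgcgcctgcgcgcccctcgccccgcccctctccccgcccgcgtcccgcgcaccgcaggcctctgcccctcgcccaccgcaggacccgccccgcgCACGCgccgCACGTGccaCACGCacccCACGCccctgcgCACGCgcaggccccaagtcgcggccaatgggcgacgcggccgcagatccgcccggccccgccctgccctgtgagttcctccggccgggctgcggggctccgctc

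LDHA, the lactate dehydrogenase A subunit, held 5 matches to ACGTG, since each palindrome CACGTG counts on both strands. RefSeq gives LDHA 2 promoter windows, and the other, not shown, held 0 matches to ACGTG and 1 to GCGTG. ANKRD37, an ankyrin repeat protein and standard HIF-1 target, held 3 such matches. BNIP3, a mitochondrial outer membrane protein of mitophagy, held 2 matches to ACGTG and 4 to GCGTG, and ENO1, the enolase of most tissues, held 2 to GCGTG. SLC2A1, which encodes the glucose transporter GLUT1, and PGAM1, phosphoglycerate mutase, held neither element in the 250 bases shown, and SLC2A1 held 1 GCGTG in the 50 bases after its start. Windows of 300 bases (250 before and 50 after the start) were found for 35 of the 41 members, 64 windows in all. Either element was present in 68.8% of the members' windows, beside 48.45% of the 35116 windows of all 27305 genes. ACGTG alone was present in 42.2% against 21.4%, and GCGTG in 40.6% against 36.5%. The share with either element was 65.3% in the 49 windows of glycolytic genes and 80.0% in the 15 windows of HIF targets. A match is a description of letters and not a binding site. SLC2A3, SLC16A1, VEGFA, BNIP3L, NDRG1 and HILPDA had no entry in the promoter table.

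Depth, identity and gene models limit what these libraries can show. The NCI-H1373 libraries held 630654 to 5994186 counts and those of NCI-H647 held 1769114 to 6938453, and in NCI-H1373 the shallowest were replicate 3 at 6 h and replicates 2 and 3 at 24 h, in every group. Epithelial markers summed to 2401 to 7521 CPM (counts scaled to the size of the library) in NCI-H1373, with 8 of 8 genes at a mean of 5 or more, and to 352.4 to 1839 in NCI-H647, with 3 of 8. Lung lineage markers reached that level for 3 of 5 genes in NCI-H1373 and for 0 of 5 in NCI-H647, where NKX2-1 was at a mean of 0.184 CPM, SFTPB at 1.65 and SFTPC at 0. Leukocyte, endothelial and fibroblast markers reached it for 0 genes in either line. In bulk RNA, fewer cells of a kind and less RNA per cell cannot be told apart. Of the 41 members, 38 passed the filter on low counts in NCI-H1373 (SLC16A1, ADM and CA9 did not) and 39 in NCI-H647 (EGLN3 and CA9 did not). These libraries read transcript ends, so levels are compared here within a gene and never between genes.

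Several libraries stood apart from their groups in these genes. Under DMSO at 24 h in NCI-H1373, replicate 3 had 1158 CPM of LDHA against 494.1 and 515 in replicates 1 and 2, and 29.51 of NDRG1 against 242.3 and 228.4. That replicate 3 was also the shallowest library of the line, with 630654 counts and 13600 genes detected. Its values for members at low CPM, such as VEGFA and HILPDA, therefore rest on few counts. Under RBN012337 at 100 nM, replicates 1 and 2 had 4.19 and 9.253 CPM of VEGFA against 69.71 in replicate 3. Replicate 2 of RBN-2397 at 30 nM had 10.19 against 49.74 and 48.75. In NCI-H647, replicate 2 of DMSO at 24 h had 168.8 CPM of NDRG1 against 18.66 and 19.4. These libraries kept their labels throughout. Counts of members called are given with and without them, but values of single members only in part. The differences of NDRG1 under DMSO, between the lines and between the times, are not given without them. Nor are the values of EGLN1 and P4HA2 in NCI-H1373 at 24 h.

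ALDOA, which encodes aldolase A, could not be read alone. It lies at chr16:30064164-30070457, and all but its last bases overlap a read-through gene (AC093512.2, chr16:30053090-30070420) on the same strand, and estimated counts moved between them. In NCI-H1373, ALDOA alone ran from 0 to 786.2 CPM of all counts and was 0 in 4 libraries, while the sum of both genes ran from 333.3 to 786.2. In NCI-H647 the sum ran from 602.3 to 1194, and the read-through gene took more than ALDOA in 3 libraries (10 in NCI-H1373). The summed pair was not called in any comparison. Strand handling is not given, so 11 other members that overlap a neighbour are also uncertain: HK2, PFKM, ALDOC, ENO2, SLC16A1, SLC16A3, CA9, ANKRD37, EGLN3, P4HA2 and ANGPTL4.

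**Figure D1:**
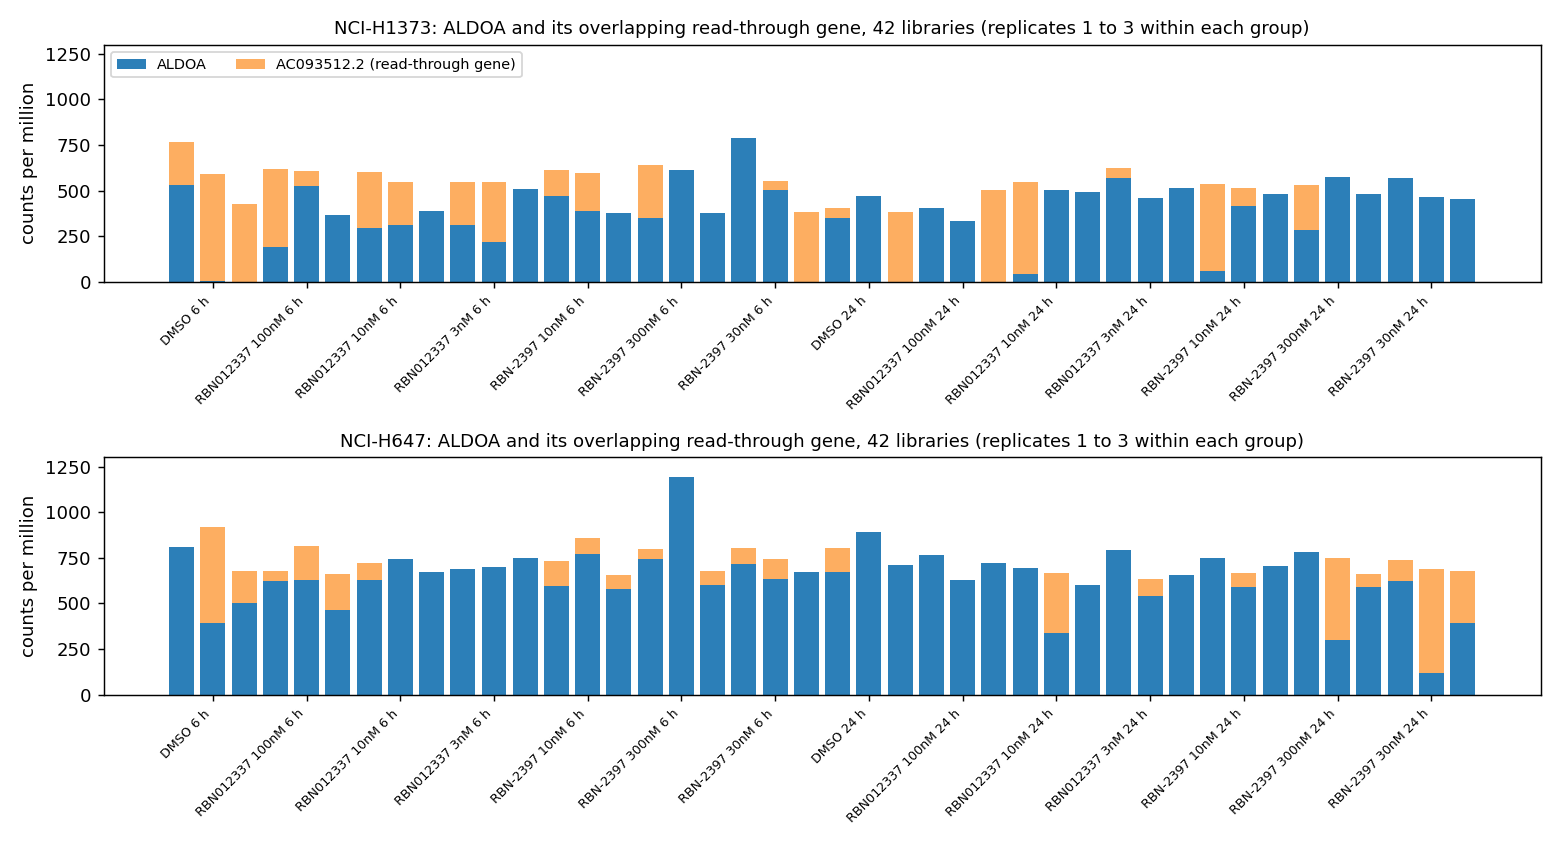
Stacked bars of ALDOA and the read-through gene AC093512.2 in each of 42 libraries per line, as CPM of all counts. The share of each gene jumps between replicates, down to 0 for ALDOA in 4 NCI-H1373 libraries, while the height of the whole bar stays between 333.3 and 786.2 in NCI-H1373 and between 602.3 and 1194 in NCI-H647.

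The lines differed in these genes before any inhibitor was added. Over 6 DMSO libraries each, 22 of 40 members differed between the lines, 8 higher and 14 lower in NCI-H1373 (edgeR quasi-likelihood test, adjusted p under 0.05, called below). Of all genes tested, 45.3% were called in this comparison (21.4% higher and 23.9% lower), so the share of the members is near the background. The split was 7 higher and 15 lower when total counts replaced TMM scaling.

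SLC16A1 encodes the lactate transporter MCT1 (chr1:112911847-112957013) and was almost absent from NCI-H1373, at 0 CPM in the median library and at most 5.6, against 51.46 to 97.57 (median 70.3) in NCI-H647. The fitted difference was -7.74 ± 0.50 (SE) on the log2 scale (adjusted p = 3.13e-20), and as NCI-H1373 is near 0 its size depends on the prior count. The other lactate exporter, SLC16A3 (MCT4), overlapped, at 24.8 to 88.63 CPM in NCI-H1373 and 19.84 to 51.6 in NCI-H647. ADM, which encodes the vasodilator peptide adrenomedullin, was likewise low in NCI-H1373 (0 to 3.59 CPM against 21.49 to 44.42, log2 difference -4.36, adjusted p = 1.36e-16). EGLN3, the HIF prolyl hydroxylase that HIF itself induces, had the opposite pattern, with 12.82 to 22.93 CPM in NCI-H1373 and 0.406 to 2.75 in NCI-H647 (3.96 ± 0.44, adjusted p = 7.02e-12). In the fits of single lines, SLC16A1 and ADM failed the filter on low counts in NCI-H1373, and EGLN3 failed it in NCI-H647. Each thus entered the joint fit through the line where it is high, so its p-value is no independent support for the difference.

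Among the enzymes, GPI (glucose-6-phosphate isomerase) ran from 58.13 to 166.6 CPM in NCI-H1373 against 248.2 to 577.4 in NCI-H647, a log2 difference of -1.90 (adjusted p = 4.3e-16). GAPDH (glyceraldehyde-3-phosphate dehydrogenase), often used as a constant reference, also did not overlap, at 1932 to 3296 CPM against 4350 to 5963 (-1.06, adjusted p = 6.67e-12). HK1, TPI1, PFKFB4, ENO1, ENO2 and ALDOC were lower in NCI-H1373 as well, and PGK1 (0.71, adjusted p = 9.39e-06), LDHA (0.66, adjusted p = 0.0006) and HK2 (1.01) were higher. Of the HIF targets, ANKRD37 (1.08), BNIP3 (0.89), NDRG1 (1.01) and BNIP3L (0.47) were higher in NCI-H1373, and HILPDA (-1.33), P4HA2 (-0.85), VEGFA (-1.64) and BHLHE40 (-0.90) were lower. VEGFA, vascular endothelial growth factor A, ran from 2.5 to 10.75 CPM in NCI-H1373 against 12.67 to 30.47 in NCI-H647. CA9, the membrane carbonic anhydrase that is a classic marker of hypoxia, had 0 counts in all 12 DMSO libraries and 5, 6, 4 and 0 counts over the 18 treated libraries of NCI-H1373 at 24 and 6 h and of NCI-H647 at 24 and 6 h.

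**Figure D2:**
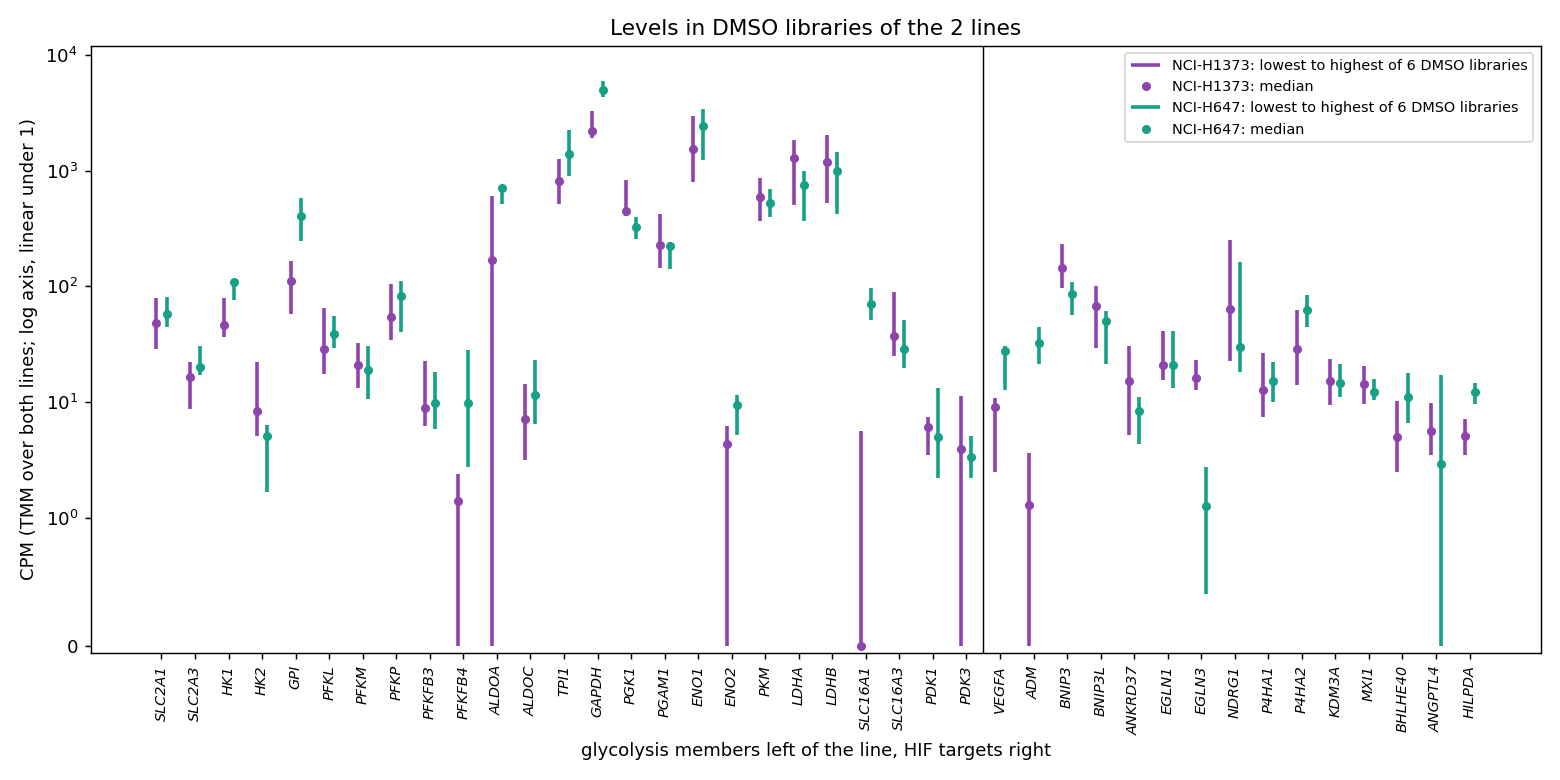
Levels of the members in DMSO libraries, in CPM on a log axis that is linear under 1, as the median (point) and range (bar) of 6 libraries per line. SLC16A1 and ADM sit near 0 in NCI-H1373, EGLN3 sits near 1 in NCI-H647, and the bars of GPI and GAPDH do not overlap between the lines.

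In NCI-H1373 at 24 h under RBN-2397 at 300 nM, the glucose transporter gene SLC2A1 and the enzyme genes PFKL, GPI, PGK1, PGAM1, ENO1 and LDHA rose by 1.53 to 2.65 times, and VEGFA rose 6.98-fold. Of the 38 members tested, 11 were called, 9 higher and 2 lower, where 11.9% of all 12832 genes tested were called (6.83% higher and 5.05% lower). The share called higher is above that background and the share called lower is near it. No test of that difference was made, and as the members were chosen with earlier results of these data known, it is no independent support.

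SLC2A1 (GLUT1, chr1:42925375-42959176) had 34.35, 28.36 and 52.07 CPM in the 3 DMSO libraries and 97.15, 96.43 and 97.59 under RBN-2397 at 300 nM. The groups did not overlap, and the log2 fold change was 1.40 ± 0.26 (SE, n = 3 and 3, edgeR adjusted p = 0.000672). PFKL, the liver-type phosphofructokinase that commits sugar to glycolysis, had 19.89, 30.38 and 17.36 CPM under DMSO and 50.19, 55.1 and 56.42 under the inhibitor. It also did not overlap and rose by 1.22 ± 0.31 (adjusted p = 0.00811). GPI, which feeds it, had 56.31, 79.5 and 111.1 against 109.5, 129.8 and 145.6 CPM, so the lowest treated library lay just under the highest DMSO library (0.67 ± 0.23, adjusted p = 0.0461).

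Further down the pathway, ENO1 had 780.8, 839.5 and 1342 CPM under DMSO and 1901, 2178 and 1984 under RBN-2397 at 300 nM (1.04 ± 0.24, adjusted p = 0.00459). PGAM1 had 147.2, 142.8 and 192.7 against 312.1, 277 and 298.1 CPM (0.89 ± 0.22, adjusted p = 0.00801). LDHA had 494.1, 515 and 1158 against 1437, 1442 and 1403 CPM (0.99 ± 0.26, adjusted p = 0.0113). In all 3 genes every treated library lay above every DMSO library, with DMSO replicate 3 the nearest. PGK1, the first enzyme of the pathway to yield ATP, had 448.2, 402.5 and 428.7 against 676.8, 662.7 and 624.5 CPM (0.62 ± 0.20, adjusted p = 0.0418).

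Other steps moved less. HK2, the inducible hexokinase that traps glucose in the cell, had 7.749, 5.063 and 8.679 CPM under DMSO and 17.2, 7.976 and 17.54 under the inhibitor, and replicate 2 of the treated group overlapped the controls. Its log2 fold change of 1.07 ± 0.38 missed the threshold (adjusted p = 0.061), and it passed with the replicate number as a block (1.09, adjusted p = 0.0492). GAPDH had 1999, 1907 and 2201 CPM against 2272, 2589 and 2175, which overlapped (0.20 ± 0.17, adjusted p = 0.492). Of the 24 glycolysis members tested, 7 rose, 0 fell and 20 had a positive log2 fold change, with a median of 0.54 beside 0.00 over all genes tested. Cytosolic ribosomal protein genes moved the same way in this comparison, with 10 of 78 higher, 2 lower and a median of 0.34, and they took 13.96%, 11.81% and 16.64% of counts in the DMSO libraries against 18.24%, 17.18% and 15.79% under the inhibitor. The part of RNA composition in the glycolytic result was not tested.

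Among HIF targets the direction was mixed. VEGFA had 5.166, 8.102 and 10.41 CPM under DMSO and 49.59, 45.68 and 53.37 under RBN-2397 at 300 nM. Every treated library lay far above every control. Its log2 fold change of 2.80 ± 0.79 (adjusted p = 0.0196) was the highest of the 38 members tested in this comparison. HILPDA, which encodes an inhibitor of lipid droplet breakdown, had 3.616, 7.089 and 5.207 CPM against 13.36, 13.05 and 9.912, without overlap (1.25 ± 0.43, adjusted p = 0.0493).

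The 2 members that fell were EGLN1 and P4HA2. EGLN1, the main HIF prolyl hydroxylase, had 39.52, 38.99 and 15.62 CPM under DMSO and 18.22, 18.85 and 16.77 under the inhibitor (-0.89 ± 0.29, adjusted p = 0.0365). P4HA2, a collagen prolyl hydroxylase, had 51.66, 62.28 and 19.09 against 24.49, 20.3 and 26.69 CPM (-0.97 ± 0.29, adjusted p = 0.0249). In both genes DMSO replicate 3 lay below the whole treated group, so the groups overlapped. NDRG1, a stress- and hypoxia-induced gene, had 242.3, 228.4 and 29.51 CPM against 138.4, 142.1 and 143.3, and the treated libraries fell inside the range of the controls (-0.28 ± 0.39, adjusted p = 0.726). BNIP3 had 122.7, 95.19 and 204.8 against 222, 184.2 and 179.9 CPM, which overlapped (0.50 ± 0.32, adjusted p = 0.342). Of the 14 HIF targets tested, 2 rose, 2 fell and 9 had a positive value, with a median of 0.21. CA9 was not tested, with 0 counts under DMSO and 5 over the 18 treated libraries at 24 h.

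These counts rest on few controls. The share of all genes called is not given for fits that leave out 1 library or use another setting. Without DMSO replicate 1, SLC2A1 alone was called (log2 fold change 1.34), and without DMSO replicate 2 the count was 6. It was 11 without the divergent DMSO replicate 3, the shallowest library of the line, and 7 or 8 without any one of the 3 treated libraries. SLC2A1 kept its call in all 6 of these fits, with 1.22 to 1.63. The values of the other members moved less than their calls: without DMSO replicate 1, LDHA was 0.78 (adjusted p = 0.117), ENO1 0.89 (0.0565), PGAM1 0.83 (0.0626), PFKL 1.09 (0.0792) and VEGFA 2.48 (0.141).

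**Figure D3:**
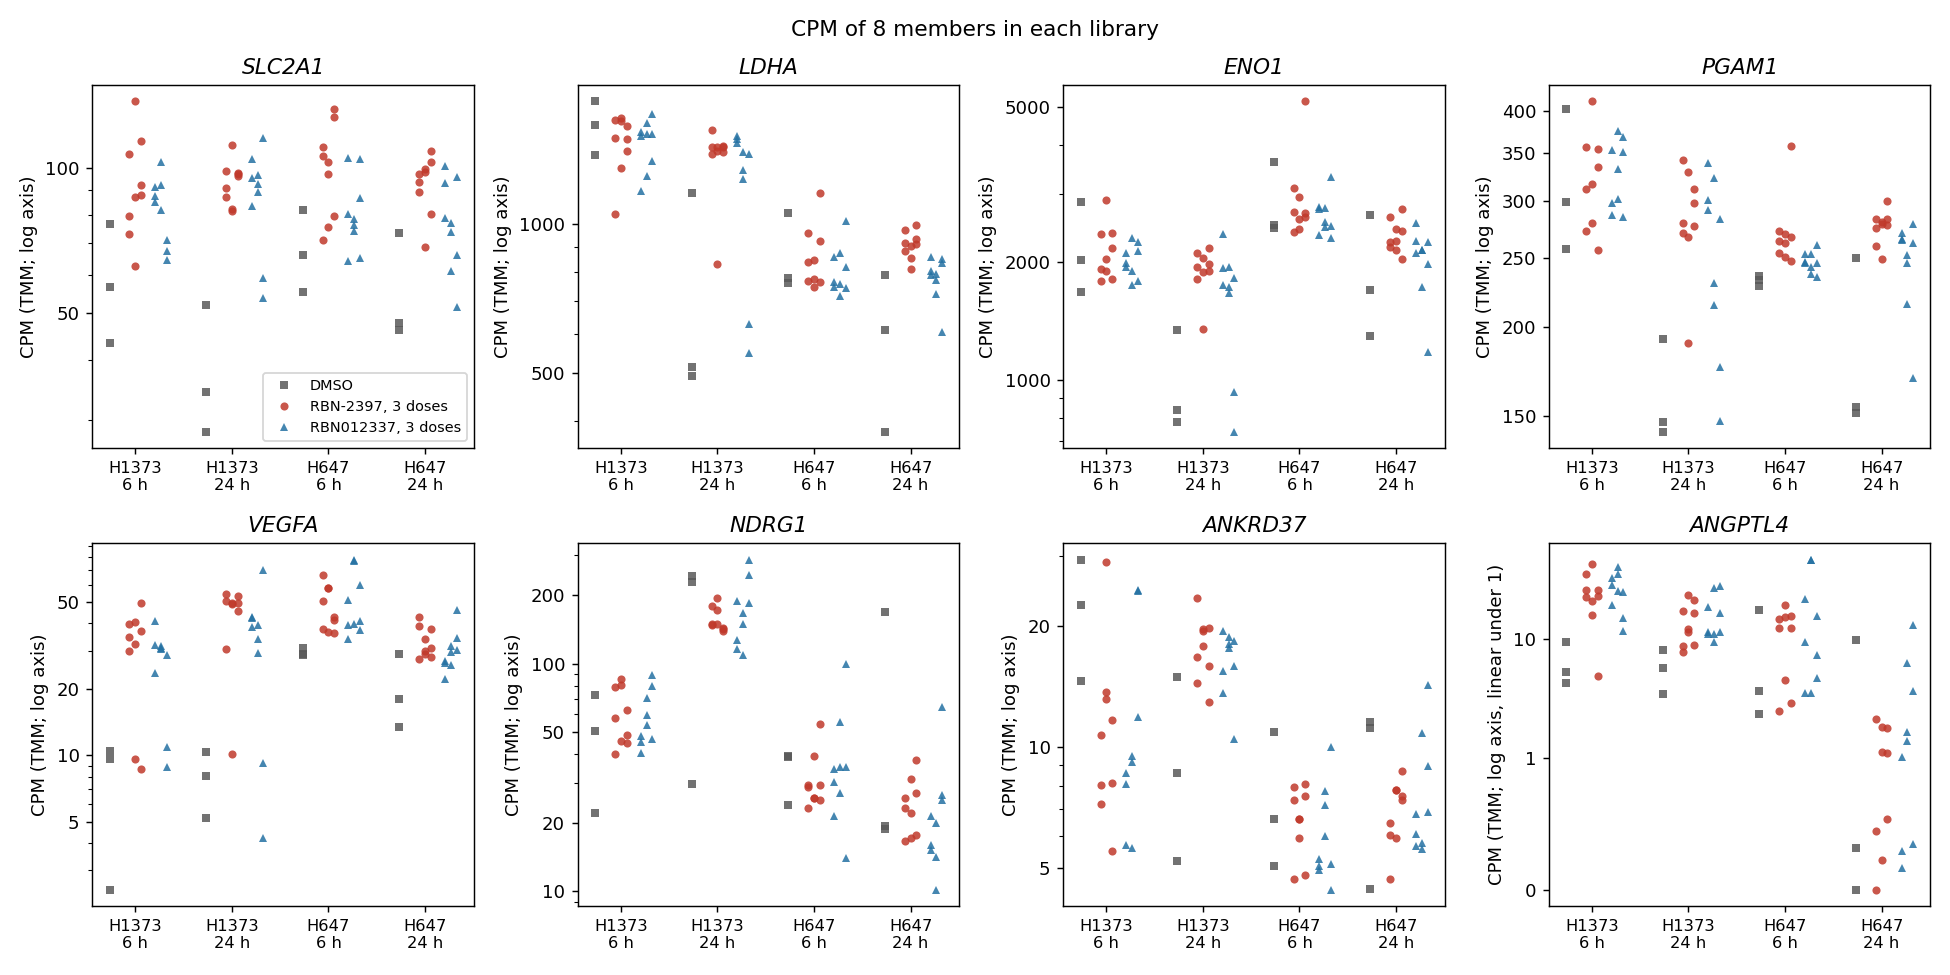
CPM of 8 members in every library, by line, time and treatment, on log axes (ANGPTL4 linear under 1), with 3 points per group. In NCI-H1373 at 24 h, SLC2A1 is above all 3 DMSO libraries in 18 of 18 treated ones, and VEGFA falls to 4.19 and 9.253 in replicates 1 and 2 of RBN012337 at 100 nM.

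The same genes were followed over both compounds and all doses at 24 h in NCI-H1373, where all 6 comparisons share the same 3 DMSO libraries and are therefore not independent. SLC2A1 was called in 5 of the 6, with log2 fold changes of 1.33 to 1.40, and was 1.05 without a call at the 100 nM dose of RBN012337. ENO1 was called in 4, LDHA, PFKL, PGAM1 and VEGFA in 3, HK2, PGK1 and EGLN1 (lower) in 2, and GPI, HILPDA and P4HA2 (lower) in 1.

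RBN-2397 at 10 nM called 8 of 38 members, where 7.33% of genes were called (4.26% higher and 3.07% lower): SLC2A1 (1.33), HK2 (1.28, adjusted p = 0.0334), PFKL (1.10), PGAM1 (0.90), ENO1 (0.99), LDHA (1.02), VEGFA (2.67) and EGLN1 (-1.08, adjusted p = 0.0197). RBN-2397 at 30 nM called SLC2A1 (1.33, adjusted p = 0.00468), 1 of 38 beside 2.16% of genes. In that group, replicate 2 had 831.9 CPM of LDHA against 1408 and 1436 in replicates 1 and 3. The count was 5 with the replicate number as a block and 7 without that replicate 2.

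RBN012337 at 3 nM called 8 of 38, all higher, where 8.5% of genes were called (4.96% higher and 3.54% lower): SLC2A1 (1.37), HK2 (1.25), PFKL (1.23), PGK1 (0.62), PGAM1 (0.96), ENO1 (1.03), LDHA (1.05) and VEGFA (2.54). At 10 nM it called SLC2A1 (1.34, adjusted p = 0.00376) and ENO1 (0.86, adjusted p = 0.0431), both higher, beside 2.68% of genes (1.86% higher). At 100 nM it called 0 of 38, beside 0.195% of genes, and 1 in the blocked fit. This highest dose was the least uniform group, with LDHA at 628.4, 550.2 and 1387 CPM, ENO1 at 932.3, 739.6 and 1828, PGAM1 at 175.6, 148 and 283.1, and VEGFA as given above. In each of these genes replicates 1 and 2 were near the DMSO range and replicate 3 was near the other treated groups. The reverse held for EGLN1, at 36.42, 37.63 and 19.57 CPM. Without DMSO replicate 1, RBN-2397 at 10 nM called 1, RBN012337 at 3 nM called 1 and RBN012337 at 10 nM called 0 members. Without DMSO replicate 2 they called 2, 5 and 0, and without the divergent replicate 3 they called 13, 13 and 5.

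**Figure D4:**
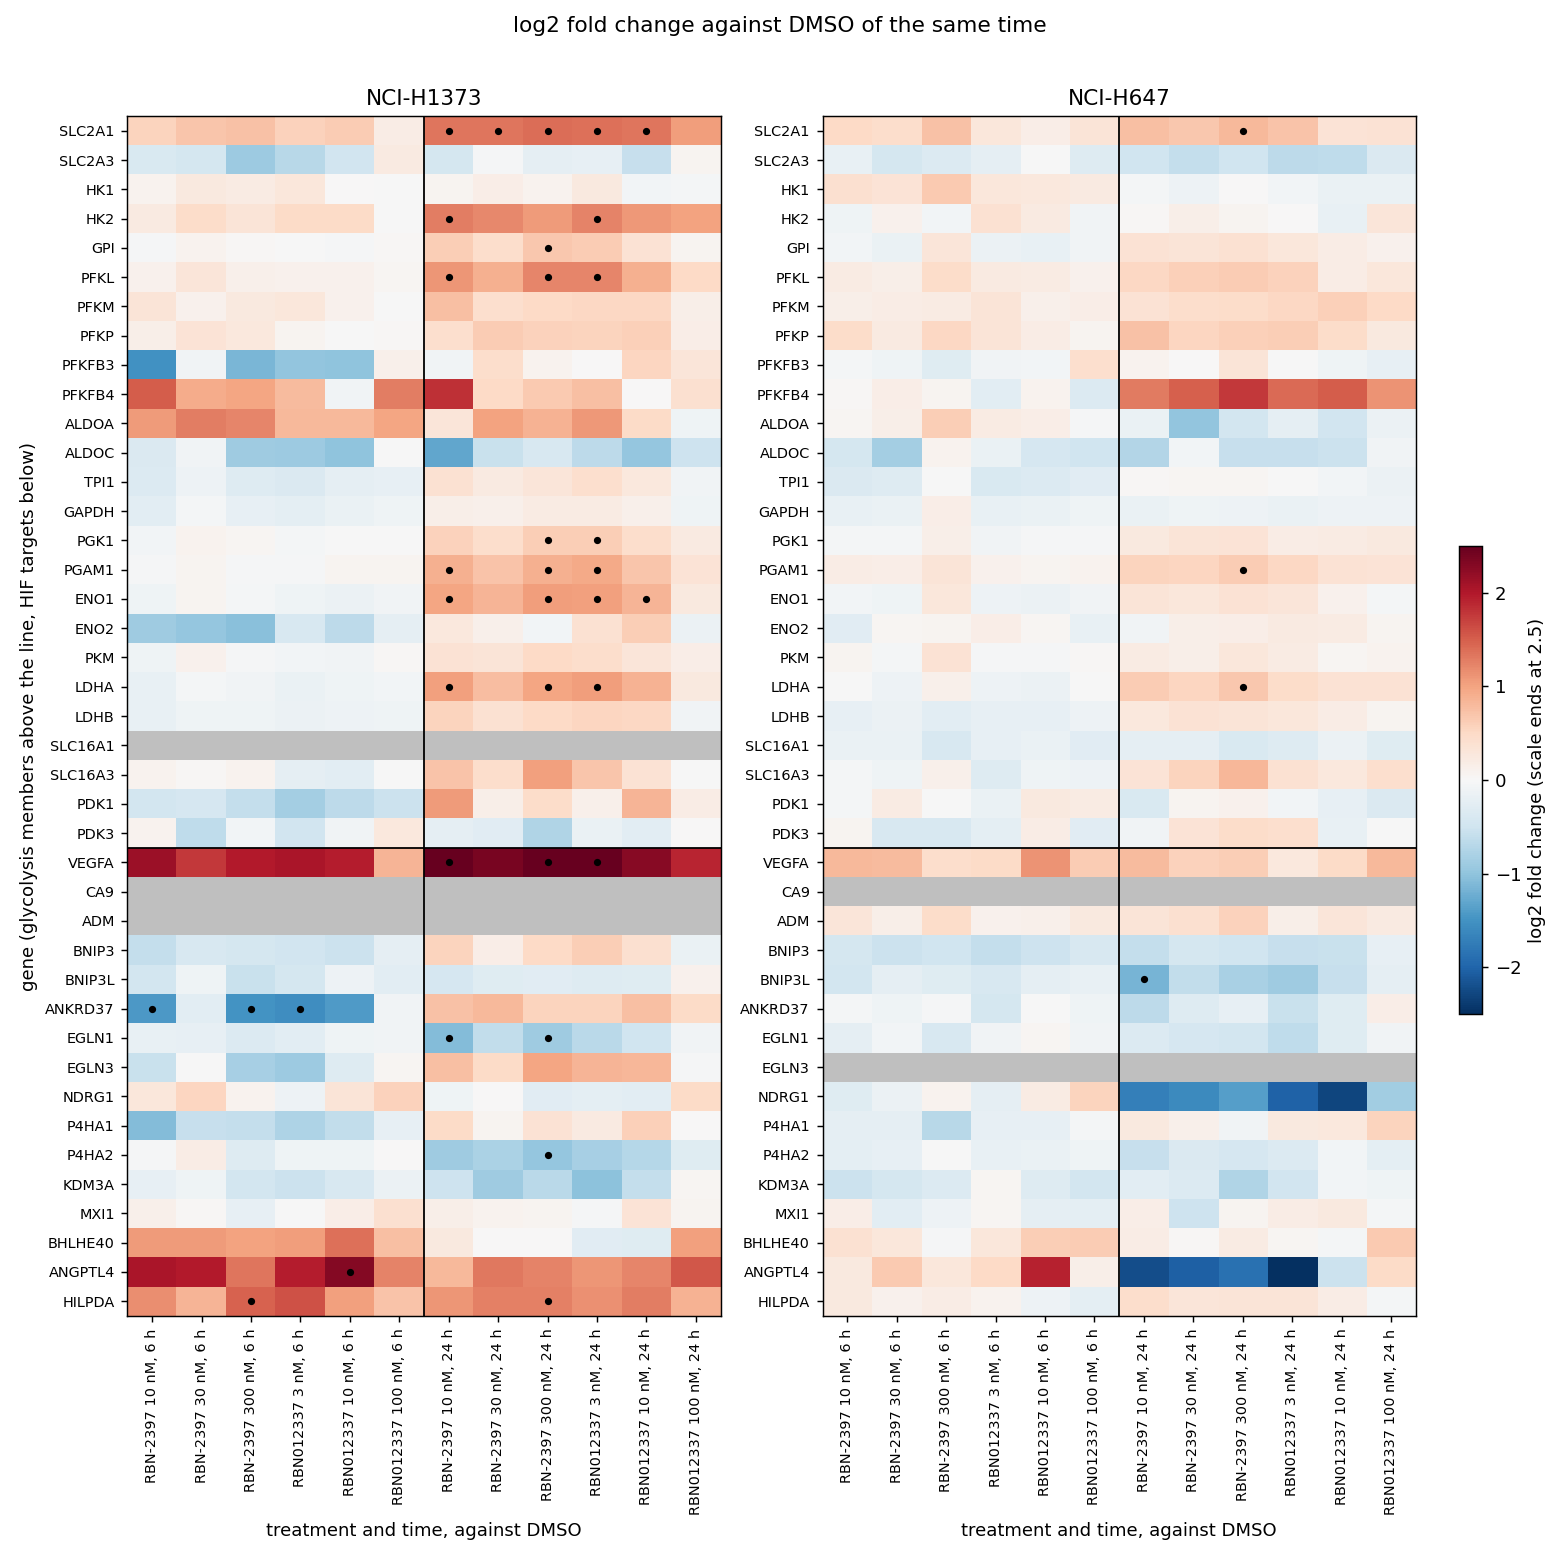
Heat map of the log2 fold change of each member (rows, by list) in each of 24 comparisons with DMSO (columns, by line, time, compound and dose), with a dot where the adjusted p is under 0.05 and grey where the gene was not tested. The dots gather in NCI-H1373 at 24 h, in SLC2A1, ENO1, LDHA, PFKL, PGAM1 and VEGFA, and are absent from the column of RBN012337 at 100 nM.

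The mean of the 6 treatments at 24 h in NCI-H1373, each weighted equally, called 11 of 38 members, 9 higher and 2 lower, beside 12.1% of all genes (6.13% higher and 6.02% lower). SLC2A1 rose by 1.30 ± 0.22 (adjusted p = 0.000172), and all 18 treated libraries (53.67 to 115.6 CPM) lay above the 3 controls (28.36 to 52.07). HK2 rose by 1.15 ± 0.32 (adjusted p = 0.0143), from 5.06 to 8.68 CPM under DMSO to a median of 14.69 over the treated libraries, with 16 of 18 above the controls. VEGFA rose by 2.43 ± 0.69 (adjusted p = 0.0202), with 15 of 18 libraries above the controls and a treated median of 42.45 CPM.

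ENO1 (0.83), PGAM1 (0.75), LDHA (0.82), PFKL (0.97), PGK1 (0.49) and HILPDA (1.15) also rose, and 15 to 17 of 18 treated libraries were above the controls in each. P4HA2 (-0.75 ± 0.21, adjusted p = 0.0148) and EGLN1 (-0.64 ± 0.21, adjusted p = 0.0358) fell, yet 0 and 2 of 18 treated libraries lay below all controls, since DMSO replicate 3 was low. ANGPTL4, which encodes a secreted inhibitor of lipoprotein lipase, had 17 of 18 libraries above the controls and missed the threshold (1.21 ± 0.47, adjusted p = 0.0814). These 18 libraries share 3 controls, and how many of all genes split this way is not given. The count was 1 without DMSO replicate 1, 6 without replicate 2 and 14 without replicate 3. SLC2A1 was called in all 21 fits that left out 1 library, with 1.12 to 1.54.

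At 6 h in NCI-H1373 the glycolytic enzymes were not called, and the calls were in HIF targets. RBN-2397 at 300 nM called 2 of 38 members, 1 in each direction, beside 1.61% of all genes. ANKRD37 (chr4:185396021-185400628) had 29.32, 22.57 and 14.63 CPM under DMSO and 5.507, 8.15 and 11.69 under the inhibitor. The groups did not overlap, and it fell by 1.49 on the log2 scale (SE 0.34, adjusted p = 0.0229). HILPDA had 3.345, 5.248 and 4.877 CPM against 13.34, 16.09 and 4.92, with replicate 3 of the treated group inside the range of the controls (1.47 ± 0.40, adjusted p = 0.0493). Neither was called without DMSO replicate 1 or 2 or treated replicate 1 or 2, and HILPDA was not called without DMSO replicate 3 either. The count was still 2 without DMSO replicate 1, through other members, SLC2A1 (0.96, adjusted p = 0.0469) and ALDOA, which shares counts with its read-through gene. It was 0 without DMSO replicate 2 and 2 without DMSO replicate 3, namely ANKRD37 and PFKFB3, a producer of the activator of phosphofructokinase. ALDOA and PFKFB3 are named here after their values were seen.

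The remaining members of the fixed set did not pass at 6 h and 300 nM in NCI-H1373. SLC2A1 had 76.55, 56.68 and 43.28 CPM against 88.11, 113.7 and 92.26, which did not overlap (0.72 ± 0.24, adjusted p = 0.116), and it passed on total counts (0.88, adjusted p = 0.0363). VEGFA had 9.642, 10.5 and 2.439 against 8.684, 49.33 and 36.9 CPM, high in replicates 2 and 3 and not in replicate 1 (1.98 ± 0.72, adjusted p = 0.154). LDHA was -0.09 (adjusted p = 0.941), PGK1 0.05 (0.968), GAPDH -0.20 (0.615), HK2 0.32 (0.714), BNIP3 -0.44 (0.541) and NDRG1 0.08 (0.972). The median was -0.03 over the glycolysis members and -0.34 over the HIF targets.

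Over the other 6 h groups, which share these controls, ANKRD37 fell under RBN-2397 at 10 nM (-1.44, adjusted p = 0.0453, beside 0.312% of genes, 0.0468% lower) and RBN012337 at 3 nM (-1.56, adjusted p = 0.0238, beside 0.468%). ANGPTL4 rose under RBN012337 at 10 nM (2.29 ± 0.50, adjusted p = 0.0381, beside 0.195%). None of these 3 was called without DMSO replicate 1 or 2. With the replicate number as a block, RBN-2397 at 10 nM called 3 members. RBN-2397 at 30 nM and RBN012337 at 100 nM called 0 of 38, beside 0.0234% and 0.0% of genes.

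In the mean of 6 treatments at 6 h, ANKRD37 fell (-1.04 ± 0.23, adjusted p = 0.0238) and ANGPTL4 rose (1.81 ± 0.43, adjusted p = 0.0294), 2 of 38 beside 1.16% of genes (0.569% higher and 0.592% lower). ANKRD37 ran from 14.63 to 29.32 CPM under DMSO and from 5.507 to 28.92 (median 9.33) under treatment, with 15 of 18 libraries below the controls. ANGPTL4 ran from 4.27 to 9.45 CPM under DMSO and from 4.87 to 42.88 (median 25.06) under treatment, with 17 of 18 above. Neither was called without DMSO replicate 2, ANKRD37 was lost without replicate 1 and ANGPTL4 without replicate 3, and on total counts the ANKRD37 call was lost (-0.91, adjusted p = 0.0531), which left 1 higher and 0 lower. Several members that missed the threshold still had nearly all treated libraries on one side of the controls: HILPDA and BHLHE40, a HIF-induced repressor, had 17 of 18 above, VEGFA 15 above, and ENO2 and PDK1 16 below. All 18 libraries share the same controls, and the share of all genes with such a split was not counted.

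Total counts alone, without TMM scaling, moved the median of all genes by up to 0.19 on the log2 scale in the 6 h comparisons of NCI-H1373, by 0.28 in its vehicle comparison over time and by 0.15 in that of NCI-H647. At 6 h this changed the split of calls from 1 higher and 1 lower to 2 and 1 for RBN-2397 at 300 nM. It changed it from 0 and 1 to 1 and 0 at 10 nM, and from 0 and 1 to 2 and 1 for RBN012337 at 3 nM.

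In NCI-H647 at 24 h, RBN-2397 at 300 nM raised 3 of 39 members, all glycolytic, beside 3.38% of all 14789 genes tested. SLC2A1 had 73.38, 46.12 and 47.63 CPM under DMSO and 80.24, 108.4 and 103.3 under the inhibitor, without overlap (0.80 ± 0.24, adjusted p = 0.0495). LDHA had 790.1, 380.8 and 610.9 against 912.2, 996 and 934.9 CPM, also without overlap (0.68 ± 0.19, adjusted p = 0.0382). PGAM1 had 249.9, 154.7 and 151.7 against 282.7, 300.1 and 277.5 CPM (0.63 ± 0.17, adjusted p = 0.0322). DMSO replicate 1 was the highest control in each. The count was 9 without that replicate, 0 without DMSO replicate 2 or 3 or treated replicate 2 or 3, and 1 without treated replicate 1. Ribosomal protein genes took 18.91%, 13.5% and 14.73% of counts in the DMSO libraries and 18.37%, 19.14% and 16.14% under the inhibitor, so DMSO replicates 2 and 3, the low controls of these 3 genes, were also low in this share. Of 78 ribosomal protein genes tested 0 were called and 65 had a positive value, with a median of 0.18, and their part in the result was not tested.

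Of the 25 glycolysis members tested in this comparison, 20 had a positive value, with a median of 0.33 beside -0.03 over all genes, and 5 of 14 HIF targets had one, with a median of -0.31. VEGFA had 18.03, 28.91 and 13.52 CPM under DMSO against 30.96, 27.98 and 37.6 (0.62 ± 0.26, adjusted p = 0.189), and treated replicate 2 lay under the highest control. NDRG1 had 18.66, 168.8 and 19.4 against 26.92, 17.67 and 37.85 CPM (-1.38 ± 0.61, adjusted p = 0.215). BNIP3 had 89.83, 114.6 and 90.55 against 79.16, 57.07 and 73.15 CPM, all treated libraries below all controls (-0.50 ± 0.20, adjusted p = 0.156). HK2 (0.07), GAPDH (-0.12) and PGK1 (0.34) did not pass either, at adjusted p of 0.958, 0.765 and 0.261, and CA9 was not tested.

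The other doses at 24 h in NCI-H647 called few members. RBN-2397 at 10 nM called BNIP3L, a relative of BNIP3 in mitophagy (-1.15 ± 0.26, adjusted p = 0.0156), beside 1.8% of genes. On total counts this became 2 higher and 1 lower. The 30 nM dose of RBN-2397 and the 3, 10 and 100 nM doses of RBN012337 called 0 of 39, beside 0.94%, 0.676%, 0.176% and 0.101% of genes. Without DMSO replicate 1, RBN-2397 at 10 and 30 nM called 9 and 7 and RBN012337 at 3, 10 and 100 nM called 8, 2 and 1, while without DMSO replicate 2 or 3 each called 0. In the mean of 6 treatments 5 of 39 were called, beside 4.98%: PGAM1 (0.49 ± 0.14, adjusted p = 0.028) and LDHA (0.51 ± 0.15, adjusted p = 0.0426) rose, and BNIP3 (-0.48 ± 0.15, adjusted p = 0.0488), BNIP3L (-0.71 ± 0.19, adjusted p = 0.0196) and NDRG1 (-1.65 ± 0.41, adjusted p = 0.0172) fell. SLC2A1 was just short (0.60 ± 0.19, adjusted p = 0.0563).

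BNIP3 ran from 89.83 to 114.6 CPM under DMSO and from 53.93 to 98.57 (median 70.08) under treatment, with 17 of 18 libraries below all controls. BNIP3L ran from 45.55 to 64.36 CPM under DMSO, with 16 of 18 treated libraries below. For NDRG1 only 7 of 18 were below, and without DMSO replicate 2 (168.8 CPM) its value was 0.27 (adjusted p = 0.839), so the fall rests on that library. Without the same replicate 2, BNIP3 was -0.34 (adjusted p = 0.339) and BNIP3L -0.61 (0.159), and 0 members were called. The count was 1 without DMSO replicate 3 and 11 without DMSO replicate 1.

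At 6 h in NCI-H647, RBN-2397 at 300 nM called 0 of 39 members, beside 0.00676% of genes. SLC2A1 had 81.96, 66.14 and 55.28 CPM against 79.44, 133 and 127.8 (0.73 ± 0.24, adjusted p = 0.221), and treated replicate 1 lay inside the range of the controls. VEGFA had 30.79, 28.79 and 28.88 against 36.09, 41.45 and 42.77 CPM (0.44, adjusted p = 0.496), and over all doses 18 of 18 treated libraries (33.83 to 77.98) lay above the controls. Its mean over the 6 treatments was 0.71 ± 0.21 (adjusted p = 0.262), where 0.0135% of genes were called. PGAM1 had 17 and HK1 14 of 18 treated libraries above the controls at 6 h, also without a call. The share of all genes with such a split was not counted. At 300 nM the values of LDHA (0.14), PGK1 (0.15), GAPDH (0.16), HK2 (-0.08), BNIP3 (-0.51) and NDRG1 (0.08) did not pass, with adjusted p from 0.296 to 0.979. The 5 other treatments called 0 of 39 members each at 6 h, beside 0.00676% of genes for RBN-2397 at 10 nM and 0.0% for the others.

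These genes also differed between the times without inhibitor in NCI-H1373, where the libraries of the 2 times differed in depth as well. Under DMSO, 11 of 38 members differed between 24 and 6 h, 3 higher and 8 lower at 24 h, beside 9.12% of all genes (3.66% higher and 5.46% lower). ENO1 had 2853, 2024 and 1681 CPM at 6 h and 780.8, 839.5 and 1342 at 24 h, without overlap (-1.15 ± 0.24, adjusted p = 0.00295). PGAM1 had 403, 299.1 and 257.3 at 6 h against 147.2, 142.8 and 192.7 CPM at 24 h, a fitted ratio of 0.499 (adjusted p = 0.00499). LDHA had 1773, 1588 and 1382 at 6 h against 494.1, 515 and 1158 CPM at 24 h (-1.14 ± 0.26, adjusted p = 0.00661). GPI, PFKP, TPI1, LDHB and ANKRD37 were lower at 24 h too, by 0.69 to 1.06 on the log2 scale.

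NDRG1 rose by 1.80 ± 0.41 (adjusted p = 0.00684), from 72.42, 50.38 and 21.95 CPM at 6 h to 242.3, 228.4 and 29.51 at 24 h, with replicate 3 low at both times. BNIP3L (0.87 ± 0.23, adjusted p = 0.0165) and P4HA2 (0.97 ± 0.29, adjusted p = 0.0296) rose as well. The median was -0.64 over the glycolysis members and 0.36 over the HIF targets, so the lists moved apart. Ribosomal protein genes moved with the glycolytic ones, with 51 of 78 lower, a median of -0.76 and a share of counts of 17.71% to 21.62% at 6 h and 11.81% to 16.64% at 24 h, and their part in the result was not tested. On total counts the split was 5 higher and 5 lower, with medians of -0.37 and 0.66. The count was 3 without the 24 h DMSO replicate 1, and 13 without replicate 3 of either time. In NCI-H647 the same comparison called 0 of 39 members, beside 0.284% of genes, with medians of -0.32 and -0.02.

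The treated and control levels in NCI-H1373 can be set side by side over time. LDHA under RBN-2397 at 300 nM was 1487, 1407 and 1578 CPM at 6 h and 1437, 1442 and 1403 at 24 h, while its controls went from 1382 to 1773 down to 494.1 to 1158. PGAM1 under the same dose was 354.4, 334.8 and 256.5 CPM at 6 h and 312.1, 277 and 298.1 at 24 h. The treated libraries of both genes at 24 h thus lay near the levels of 6 h, and the DMSO libraries lay below them. SLC2A1 and VEGFA differed from this. Over all treated libraries at 24 h their medians were 94.09 and 42.45 CPM, above their DMSO libraries at 6 h (43.28 to 76.55 and 2.439 to 10.5).

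The change of the response with time was tested directly, as the mean of 6 treatments against DMSO at 24 h minus that at 6 h. In NCI-H1373 1 of 38 members was called, beside 0.53% of genes: ANKRD37 (1.69 ± 0.37, adjusted p = 0.0329), which was lower than DMSO at 6 h and at 24 h had 14.98, 8.608 and 5.207 CPM under DMSO against 12.95, 15.95 and 19.82 under RBN-2397 at 300 nM. It was not called without the 24 h DMSO replicate 2 or the 6 h DMSO replicate 1 or 2. ENO1 (0.91, adjusted p = 0.083) and LDHA (0.94, adjusted p = 0.098) did not pass, and 7 members were called without the 24 h DMSO replicate 3. In NCI-H647 0 members were called, beside 0.0% of genes.

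The difference of the response between the lines was also tested directly. At 24 h SLC16A1 was called, 1 of 40 members beside 0.47% of genes (-3.29 ± 0.71, adjusted p = 0.0167). In NCI-H1373 this rests on 21 counts in DMSO replicate 1, with 0 in the other 2 controls and 14 over 18 treated libraries, and without that replicate the value was 3.11 (adjusted p = 1.0). SLC16A1 failed the filter on low counts in NCI-H1373 and entered this fit through NCI-H647, so its call is no support for a difference of the response. VEGFA (1.83, adjusted p = 0.241), NDRG1 (1.55, 0.263) and SLC2A1 (0.70, 0.369) did not pass, so their responses are not shown to differ between the lines. At 6 h 0 members were called, beside 0.0% of genes.

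RBN-2397 and RBN012337 were compared directly at 10 nM, the dose they share, in 4 line and time settings. None of the 38 or 39 members differed in any of the 4, at the lowest adjusted p of 1.0, and 0.0% of all genes were called in each, with 153 to 456 genes at an unadjusted p under 0.05. In NCI-H1373 at 24 h, the difference of RBN-2397 over RBN012337 was -0.01 for SLC2A1 (95% interval -0.49 to 0.47), 0.15 for LDHA (-0.35 to 0.66), 0.14 for ENO1 (-0.33 to 0.60) and 0.39 for VEGFA (-0.90 to 1.68). These intervals bound the difference and do not show that the compounds act alike. In NCI-H647 at 24 h the values were 0.40 for SLC2A1 (-0.06 to 0.86) and 0.28 for LDHA (-0.10 to 0.65). The median size of the difference was 0.16 and 0.12 in NCI-H1373 (24 and 6 h) and 0.19 and 0.11 in NCI-H647. Members with low counts gave the extremes, PFKFB4 at 1.81 (0.22 to 3.40) in NCI-H1373 at 24 h and ANGPTL4 at -1.70 (-3.59 to 0.20) in NCI-H647 at 6 h. At 24 h, 95% intervals wholly below no difference were those of EGLN1 in NCI-H1373 (-0.59, -1.16 to -0.015) and, in NCI-H647, BNIP3L (-0.58, -1.09 to -0.06) and P4HA2 (-0.51, -0.91 to -0.10). That of PFKFB4 lay wholly above it at both times in NCI-H1373. These intervals are not adjusted for the number of members.

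Within a compound, the highest dose was compared with the lowest. For RBN-2397 (300 against 10 nM) no member was called in either line or time, beside 0.0% of genes, and the median over the members at 24 h was 0.03 in NCI-H1373 and 0.06 in NCI-H647. For RBN012337 (100 against 3 nM) 0 of 38 members were called in NCI-H1373 at 24 h, beside 0.125% of genes (0.0857% higher and 0.039% lower), with a median of -0.30. Without replicate 3 of the 100 nM group, 10 were called: BHLHE40 was higher at 100 nM, and BNIP3, EGLN3, ENO1, GPI, LDHA, PFKL, PGAM1, TPI1 and VEGFA were lower. The share of all genes called in that fit is not given, so the 10 cannot be set against a background. A difference between the doses of this compound therefore depends on which of its 100 nM libraries are counted.

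Scores give each list 1 value per library, the mean log2 CPM of its tested genes, with ALDOA and its read-through gene summed, an addition made after seeing the data. In NCI-H1373 at 24 h the glycolysis score was 5.79, 5.83 and 5.69 under DMSO and 6.34, 6.31 and 6.43 under RBN-2397 at 300 nM. Over both compounds 17 of 18 treated libraries lay above the controls and 1 below, in a range of 5.69 to 6.52. The HIF target score was 4.59, 4.46 and 4.01 under DMSO and 4.74, 4.77 and 4.82 under RBN-2397 at 300 nM, with 17 of 18 above. Summed CPM, in which high genes weigh most, overlapped for both lists. It was 430.5 to 668.7 under DMSO and 473.3 to 727.5 (median 619.9) under treatment for HIF targets. For glycolysis it was 6218 to 8643 and 5636 to 11700 (median 9846). At 6 h 0 of 18 lay above the controls for glycolysis and 9 for HIF targets.

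In NCI-H647 at 24 h the glycolysis score was 6.59, 6.24 and 6.18 under DMSO and 6.72, 6.66 and 6.69 under RBN-2397 at 300 nM, with 9 of 18 libraries above and 1 below. The HIF target score was 4.003, 4.80 and 4.04 under DMSO and 4.28, 3.92 and 4.29 under that dose, with 1 of 18 above and 5 below. The high control is replicate 2, the library with 168.8 CPM of NDRG1. No p is given for the scores.

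**Figure D5:**
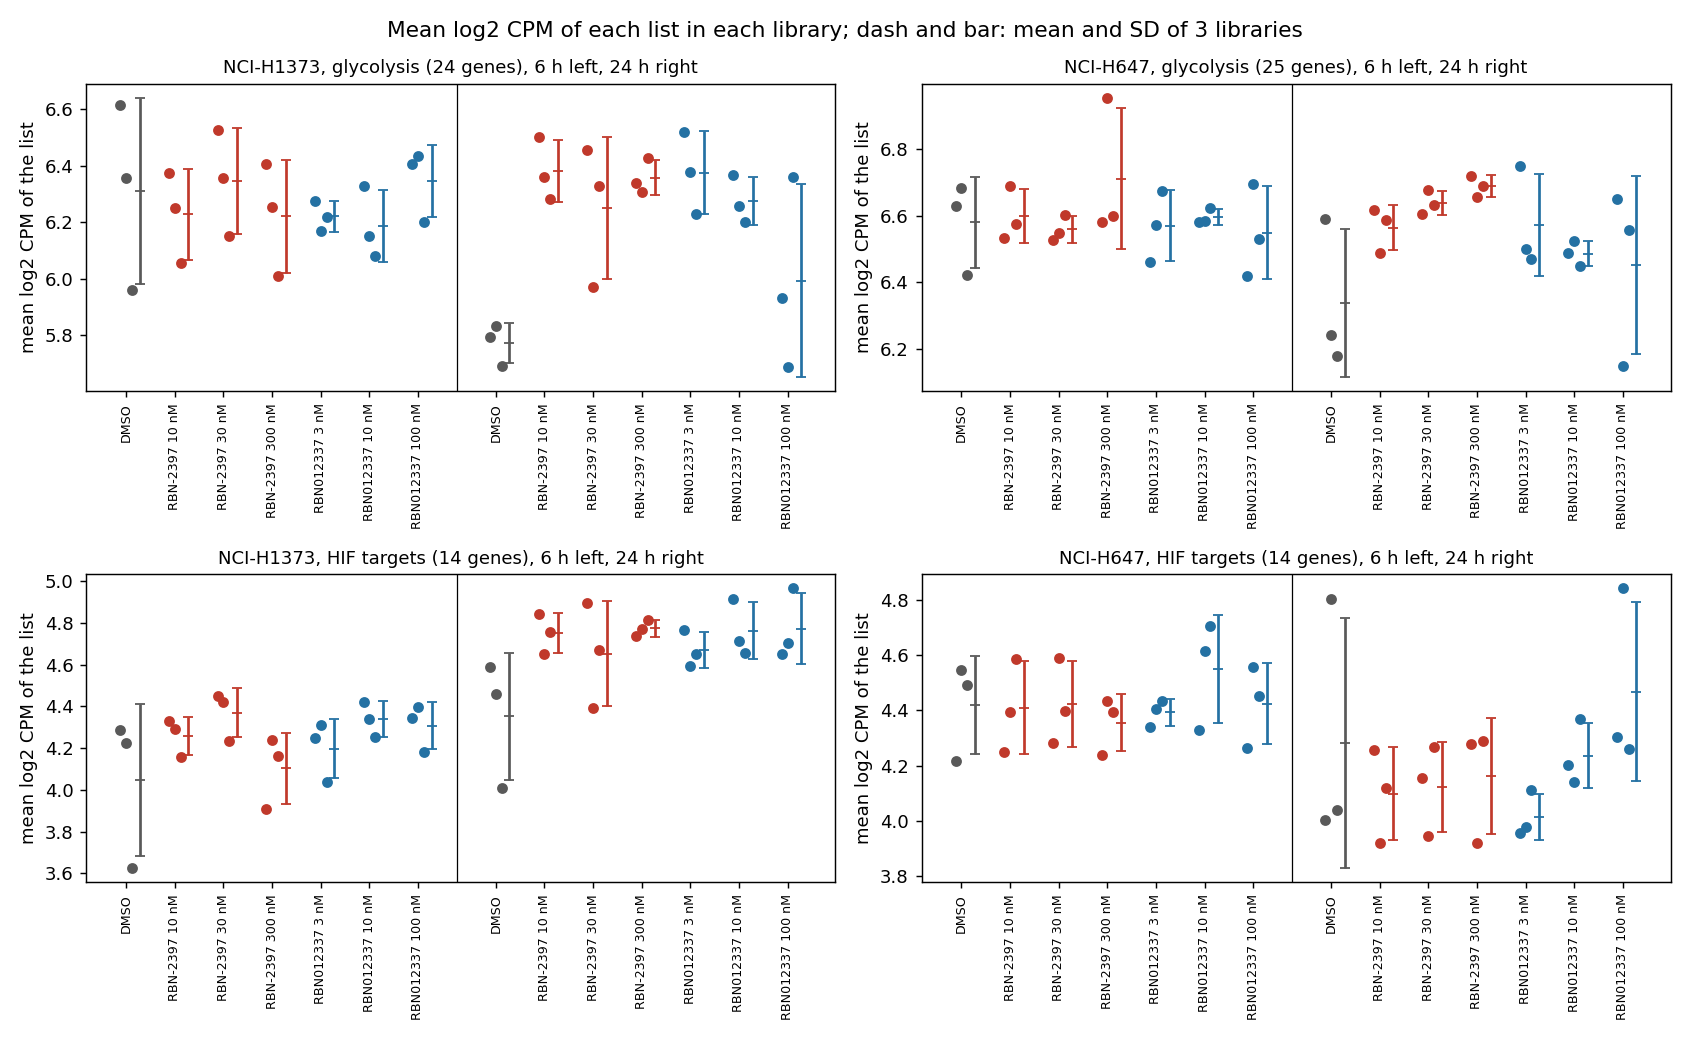
Score of each list in every library (mean log2 CPM of its tested genes, ALDOA summed with its read-through gene), by line, time and treatment, with the mean and SD of 3 libraries as dash and bar. In NCI-H1373 at 24 h, 17 of 18 treated libraries lie above the 3 controls in both scores, and in NCI-H647 the HIF score of DMSO replicate 2 at 24 h (4.80) stands above its group.

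Neighbouring pathways were read from lists of related genes under RBN-2397 at 300 nM. In this comparison at 24 h, 6.83% of all genes were called higher and 5.05% lower in NCI-H1373, and 2.22% and 1.16% in NCI-H647. No test of a list against these shares was made. The calls use the same DMSO libraries as those of the members, which moved when 1 library was left out. No such fits are given for these lists. Of 8 oxygen-sensing genes tested in each line, 1 rose in each: HIF1A (HIF-1 alpha itself) in NCI-H1373 at 24 h (0.84 ± 0.29, adjusted p = 0.0495), and EPAS1, which encodes HIF-2 alpha, in NCI-H647 (0.78 ± 0.20, adjusted p = 0.0214). Of 12 further HIF targets tested in NCI-H1373, 3 rose at 24 h: DDIT4, an inhibitor of mTORC1 signalling (1.79, adjusted p = 0.00392), AK4, a mitochondrial adenylate kinase (1.47, adjusted p = 0.00608), and LOX, which cross-links collagen (1.69, adjusted p = 0.0312). At 6 h 2 of the 12, DDIT4 (1.68, adjusted p = 0.0346) and STC2, a secreted glycoprotein (1.68, adjusted p = 0.0461), rose, beside 0.974% of genes called higher. Of 16 tested in NCI-H647, STC1, its relative, rose at 24 h (2.24 ± 0.38, adjusted p = 0.000786).

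All 15 genes of the list of pyruvate entry and the pentose phosphate pathway were tested in each line. In NCI-H1373 at 24 h, PGLS, a lactonase of the pentose phosphate branch, rose (1.26 on the log2 scale, adjusted p = 0.0132). MPC2, a subunit of the mitochondrial pyruvate carrier, was the 1 of 15 that fell (-0.86 on the log2 scale, adjusted p = 0.00893). In NCI-H647 MPC1, the other carrier subunit, was the 1 of 15 that fell (-1.17, adjusted p = 0.0161), and 0 rose. Of the isozymes outside the member list, BPGM, bisphosphoglycerate mutase, fell in NCI-H1373 (-0.92, adjusted p = 0.0437) and HKDC1, a further hexokinase, fell in NCI-H647 (-1.12, adjusted p = 0.032), 1 of 4 and 1 of 5 tested.

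AHR targets outside the lists responded in NCI-H1373, over the mean of 6 treatments. TIPARP, which encodes the inhibited enzyme, rose by 1.18 at 6 h (adjusted p = 0.0244) and by 1.04 ± 0.28 at 24 h (adjusted p = 0.0118). CYP1B1, a cytochrome P450 induced by AHR, rose by 4.24 at 6 h (adjusted p = 0.00267) and by 1.90 at 24 h (adjusted p = 0.0407). In NCI-H647 TIPARP was 0.27 at 24 h (adjusted p = 0.843), and CYP1B1 was 1.15 at 6 h (adjusted p = 0.509) and 1.14 at 24 h (adjusted p = 0.22). Yet CYP1B1 lay above all controls there in 12 of 18 treated libraries at 6 h and in 18 of 18 at 24 h (124.1 to 301.2 CPM against 59.2 to 118.9), so a missed threshold does not show that NCI-H647 lacked this response. In NCI-H1373 these AHR targets were called at 6 h, and SLC2A1, ENO1, LDHA and PGAM1 were not. Yet SLC2A1 lay above all controls in 13 of 18 treated libraries at 6 h. For ENO1, LDHA and PGAM1 this held in 1, 0 and 1. A missed threshold therefore does not show that SLC2A1 responded later than the AHR targets. Fits with a library left out are not given for TIPARP and CYP1B1. Whether the response of the AHR targets and that of the glycolytic genes depend on each other was not tested.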

How the data were processed

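The authors deposited a table of estimated counts per gene, not normalized. Per the labels' protocols the libraries were 3' digital gene expression libraries with paired-end reads. Per the submitters' processing notes the estimated counts came from Salmon on hg38. Annotation, strand handling and molecular identifiers: not given in the sources used here. Of the nonzero values, 49.4% were not whole, and all were rounded. Each interval is the log2 value plus or minus a fixed multiple of its SE, and so reflects the spread between libraries. At low counts the SE can understate the uncertainty. The difference between the lines in the 24 h response of SLC16A1 went from -3.29 to 3.11 without a single DMSO library. Each line was fitted alone (42 libraries, 14 groups) with edgeR 4.0.16 (filterByExpr, TMM, robust quasi-likelihood test, R 4.3.3), and both lines together (84 libraries, 16177 genes) for differences between them. P-values were adjusted by Benjamini-Hochberg over all genes of a comparison at a threshold of 0.05. CPM are TMM-scaled unless said otherwise, and scores use a prior count of 2. Alternatives were DESeq2 1.42.0, total counts, no filter on low counts, a replicate block, and each library left out. All 84 replicate pairs differed beyond sampling noise. In 9 of 24 comparisons the 3 same-numbered pairs all correlated above 0.1 (range -0.13 to 0.75), so the block was read beside those results. Members called in a comparison were named (the 15 smallest p where more), with SLC2A1, HK2, GAPDH, LDHA, PGK1, VEGFA, CA9, NDRG1 and BNIP3 always given at 300 nM. The members and lists were chosen with earlier results of these data known. The scripts were tested on simulated data. Not every listed gene is reported here.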

Additional observations from a re-analysis of the deposited data

Results flagged for a closer look

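The response of ANKRD37 in NCI-H1373 differed between the times, by 1.69 on the log2 scale for 24 h minus 6 h (edgeR adjusted p = 0.0329), with a log2 fold change of -1.04 at 6 h over the mean of 6 treatments. It overlaps UFSP2 on the opposite strand, and counts of the pair cannot be told apart where strand is not given.

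The response of SLC16A1 at 24 h was called as different between the lines, by -3.29 for NCI-H1373 minus NCI-H647 (edgeR adjusted p = 0.0167). The gene failed the filter on low counts in NCI-H1373 and entered this fit through NCI-H647. Its NCI-H1373 counts were 21 in 1 DMSO library, 0 in the other 2 and at most 4 in any treated library, and the value was 3.11 without that DMSO library.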

How the results depend on the processing

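The number of members called moved by more than 1.5 times under these settings, and the cause was not tested. The share of all genes called under each setting is not given, so these counts cannot be set against a background. DESeq2 gave 4 for RBN-2397 30 nM (1 in the edgeR fit) and 1 for RBN012337 100 nM (0) in NCI-H1373 at 24 h. At 6 h it gave 2, 1, 3 and 2 for RBN-2397 10 and 30 nM and RBN012337 3 and 10 nM (1, 0, 1 and 1), 1 for RBN012337 100 against 3 nM (0), and 2 for the response over time (1). In NCI-H647 at 24 h it gave 3 and 1 for RBN-2397 10 and 30 nM (1 and 0) and 3 and 1 for RBN012337 3 and 10 nM (0 and 0). Without the low-count filter the NCI-H1373 counts were 4 for RBN-2397 30 nM, 4 and 3 for RBN012337 10 and 100 nM at 24 h, and at 6 h 5, 3 and 5 for RBN-2397 10, 30 and 300 nM, 4 and 3 for RBN012337 3 and 10 nM and 4 for the mean of 6 treatments. In NCI-H647 they were 8, 4 and 6 for RBN-2397 10, 30 and 300 nM and 3 and 2 for RBN012337 3 and 10 nM at 24 h, 2 for RBN012337 10 nM at 6 h and 3 for vehicle over time. On total counts they were 2 for RBN-2397 30 nM at 24 h, 3 for RBN012337 3 nM and 1 for the mean at 6 h, and in NCI-H647 3 and 1 for RBN-2397 10 and 30 nM.

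With the replicate block the NCI-H1373 counts were 5 for RBN-2397 30 nM, 4 and 1 for RBN012337 10 and 100 nM and 1 for 100 against 3 nM at 24 h. At 6 h they were 3 for RBN-2397 10 nM, 3 and 2 for RBN012337 3 and 10 nM and 1 for 100 against 3 nM, with 3 for the response over time. In NCI-H647 at 24 h the block gave 4 and 5 for RBN-2397 10 and 300 nM, 1 for RBN012337 3 nM and 8 for the mean of 6 treatments. It left the remaining counts within 1.5 times.

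Leaving out 1 library moved the NCI-H1373 24 h counts over 1 to 11 (RBN-2397 300 nM), 1 to 13 (10 nM), 0 to 7 (30 nM), 1 to 13, 0 to 5 and 0 to 1 (RBN012337 3, 10 and 100 nM), 1 to 14 (mean) and 0 to 10 (100 against 3 nM). At 6 h the counts ran over 0 to 2 (RBN-2397 10 and 300 nM, RBN012337 3 nM, the mean and 100 against 3 nM) and 0 to 1 (RBN-2397 30 nM, RBN012337 10 nM). Vehicle over time gave 3 to 13, the response over time 0 to 7 and the difference of the 24 h response between the lines 0 to 1. In NCI-H647 the 24 h counts ran over 0 to 9 (RBN-2397 10 and 300 nM), 0 to 7 (30 nM), 0 to 8, 0 to 2 and 0 to 1 (RBN012337 3, 10 and 100 nM) and 0 to 11 (mean). The 6 h counts ran over 0 to 1 (mean, RBN012337 10 nM) and vehicle over time 0 to 3. The vehicle difference between the lines stayed at 19 to 24. NDRG1 in NCI-H647 (mean at 24 h) ran over -2.09 to 0.27, reversed without 1 DMSO library. SLC16A1 in the difference of the 24 h response between the lines ran over -3.85 to 3.11, also reversed without 1 DMSO library. A tally of single members covered only part of their values. It misses gained calls, such as those behind the counts of 0 to 9 above. Under the other settings, 567 of the tallied values kept direction and side of the threshold, 31 lost their call, 4 gained one and 0 reversed. With 1 library left out, 915 of the tallied values kept both, 227 lost their call, 2 gained one and 2 reversed. Depth limits members under about 10 CPM most, such as HK2, HILPDA and PFKFB4.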

Other observations

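ALDOC, the brain-type aldolase, went against the other glycolytic genes in NCI-H1373 at 24 h, with 16 of 18 treated libraries below all 3 controls. It overlaps AC005726.1 on the same strand and was not called. PFKP and EGLN3 each had 14 of 18 libraries above the controls there, without a call. In NCI-H647 at 24 h PFKFB4, which sets the level of an activator of phosphofructokinase, had 15 of 18 treated libraries above the controls (1.44 ± 0.57, edgeR adjusted p = 0.144). The share of all genes with splits like these was not counted.
ADM, untested in NCI-H1373 for low counts, had 10 counts in all over 3 DMSO libraries and 133 over 18 treated ones at 6 h, and 12 and 96 at 24 h. EGLN3 in NCI-H647 had 9 and 44 counts at 6 h, and 17 and 55 at 24 h. These sums of both genes are raw, over unequal numbers of libraries of unequal depth, and give no direction.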
